A study of Mus musculus with 2 samples.

Results

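The proteasome genes were followed in RNA-seq of mouse dorsal root ganglion macrophages after chronic intermittent hypoxia (CIH) or normoxia. Members were all rows of the count table whose symbol starts with Psma, Psmb, Psmc, Psmd, Psme, Psmf or Psmg followed by a digit, without pseudogene rows marked -ps, which gave 50 genes of 49315. The rule used names only and no measured value, although it was set with earlier results of these data known. The 4 -ps rows left out held 0 counts in both libraries. By role there were 8 genes of the 20S alpha ring, 7 of the constitutive 20S beta ring, 3 of the immunoproteasome, 1 of the thymoproteasome (Psmb11), 6 ATPase and 11 non-ATPase genes of the 19S particle, 5 activator genes, 1 inhibitor gene (Psmf1) and 7 assembly chaperone genes. Psmc3ip also met the name rule, although its product is a meiotic recombination factor and no part of the proteasome.

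The CIH group had mice whose chamber oxygen was cycled between 21% and 8% every 6 min, 10 times an hour, for 8 h a day over 14 days. The normoxia group went through a sham schedule in chambers of the same kind at 21% throughout. Experiments followed about 18 h after exposure ended in both groups. Each group was 1 library from cells labelled as dorsal root ganglion macrophages, and the labels used here state neither the strain, sex, age and number of the mice nor how the cells were isolated. The CIH column of the tables was matched to its group by the initial of its code alone, since the number in the code, 19, is in neither sample's labels. With 1 library a group no difference below has a replicate check, no p-value was computed, and every interval covers counting error between these libraries only.

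The CIH library held 145056 counts and the normoxia library 2171348, with 2050 and 4640 genes counted. In CPM, which brings libraries of unlike depth to 1 size, the 3 counts that a 0 still allows come to 20.7 in CIH and 1.38 in normoxia. The median counted gene had 42 reads in CIH and 230 in normoxia, and no molecular identifiers are mentioned that would tell copies of 1 molecule apart. An estimate of reads per starting molecule, the median count of genes found in 1 library alone with at least 10 counts, was 39 in CIH and 229 in normoxia, and intervals on molecules below divide the counts by it first. The labelled cell type was checked against its markers. Of 15 macrophage markers 3 were counted in CIH (Itgam, Cx3cr1 and Lyz2) and 13 in normoxia, for 22130 and 20750 CPM in sum, mostly Lyz2. Adgre1, Cd68, Csf1r and the C1q genes were at 0 in CIH, and the 3 of 13 markers seen again in CIH compare with 25% of all genes counted in normoxia. Of 14 neutrophil markers 11 were counted in CIH and 10 in normoxia, for 103200 and 18350 CPM in sum. They did not all go 1 way. Mmp8, Mmp9 and Mpo were at 0 in CIH with 312, 522 and 506 reads in normoxia, whereas Csf3r, Cxcr2, Elane and Ly6g were counted in CIH alone. Erythroid markers held 78720 CPM in CIH and 96080 CPM in normoxia. Of 12 sensory neuron markers only Isl1 was counted, with 60 reads in CIH and 0 in normoxia. The part of other cell types in the proteasome values was not tested, and in bulk RNA fewer cells of a type cannot be told apart from less RNA per cell.

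The proteasome is the main protease of the cytosol and nucleus and degrades proteins tagged with ubiquitin. Its 20S core is a barrel of alpha and beta rings with the cutting sites inside, and its 19S cap binds ubiquitin, unfolds substrates with a ring of ATPases and feeds them into the core. In immune cells, interferon gamma induces alternative catalytic subunits, the immunoproteasome genes Psmb8, Psmb9 and Psmb10, together with the PA28 activator genes Psme1 and Psme2, which favour peptides for display on MHC class I.

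More of the proteasome was seen than of the genome at large, and the whole group took a similar share of both libraries. In CIH 16 of the 50 members were counted (32%), against 8.39% of all protein-coding rows, and in normoxia 33 were (66%), against 19.4%. Together they held 839 reads in CIH and 11717 in normoxia, which is 0.578% (95% Clopper-Pearson interval 0.54 to 0.619) and 0.540% (0.530 to 0.5495) of all counts. The ratio of these shares, CIH over normoxia, was 1.07 (0.998 to 1.15 by reads, 0.616 to 1.81 by molecules). With trimmed mean of M values (TMM) scaling, used below for single genes, it was 0.614 (0.572 to 0.659 by reads, 0.353 to 1.03 by molecules), so its direction turns with the scaling. Where both libraries have reads and no prior count is added, TMM moves a log2 ratio by −0.80 relative to total counts. The reads stood for an estimated 21.5 molecules in CIH and 51.2 in normoxia.

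Of the 33 members counted in normoxia, 15 were also counted in CIH (45.5%), against 25% of all genes counted in normoxia. With at least 10 counts in each library there were 13, against 24.3% of all genes. The median count of a counted member was 43.5 in CIH and 268 in normoxia, close to the medians of all counted genes given above. The 15 members found in both had a median of 349 reads in normoxia (82 to 1185), and the 18 found in normoxia alone had 251 (12 to 870). Per gene length the order was the reverse, with median deposited TPM in normoxia of 75.5 and 93.2. Psma4 was the only member counted in CIH alone. The 16 members at 0 in both libraries were Psma8, Psmb5, Psmb6, Psmb11, Psmc4, Psmc5, Psmc6, Psmd4, Psmd12, Psmd5, Psmf1, Psmg1, Psmg2, Psmg3, Psmg4 and Psmc3ip.

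Single genes with at least 50 counts over both libraries were called higher or lower when the ratio of TMM-scaled counts was at least 2-fold and its 95% interval on reads excluded 1. Of the 32 members measured by this rule, 4 were higher in CIH (12.5%, against 11.9% of 4215 genes), 23 were lower (71.9%, against 75.7%) and 5 met neither. These shares are near the background and are no result about the proteasome. Of the 23 lower members 17 had 0 counts in CIH (73.9%, against 90.3% of all 3192 lower genes). The median log2 ratio was −7.06 for members and −7.51 for all genes with a prior count of 0.5, and −2.79 and −2.75 with each 0 set to 3 counts. Among genes counted in both libraries the median was −0.22 for the 15 members and −0.11 for all 1108. With total counts 7 were higher (against 16.1%) and 20 lower (against 71.5%), with DESeq2 size factors 5 (12.1%) and 22 (75.5%), and with scaling to a housekeeping list 7 (18.1%) and 20 (69.1%). On estimated molecules with TMM no member was higher (against 0.19% of genes) or lower (against 1.3%). On molecules with total counts Psmb4 alone was higher (against 0.83%) and none was lower (against 0.38%). The most abundant member in normoxia held 545.7 CPM, while 3 estimated molecules in CIH come to 807 CPM, so the fold bounds given below for members at 0 in CIH hold for reads only. For the same reason no member could have been called lower on molecules, whatever its count in CIH. The fold bounds use TMM with the 0 set to 3 counts. With total counts each is 0.573 times as large, and the 95% intervals on reads also allow smaller folds.

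**Figure D1:**
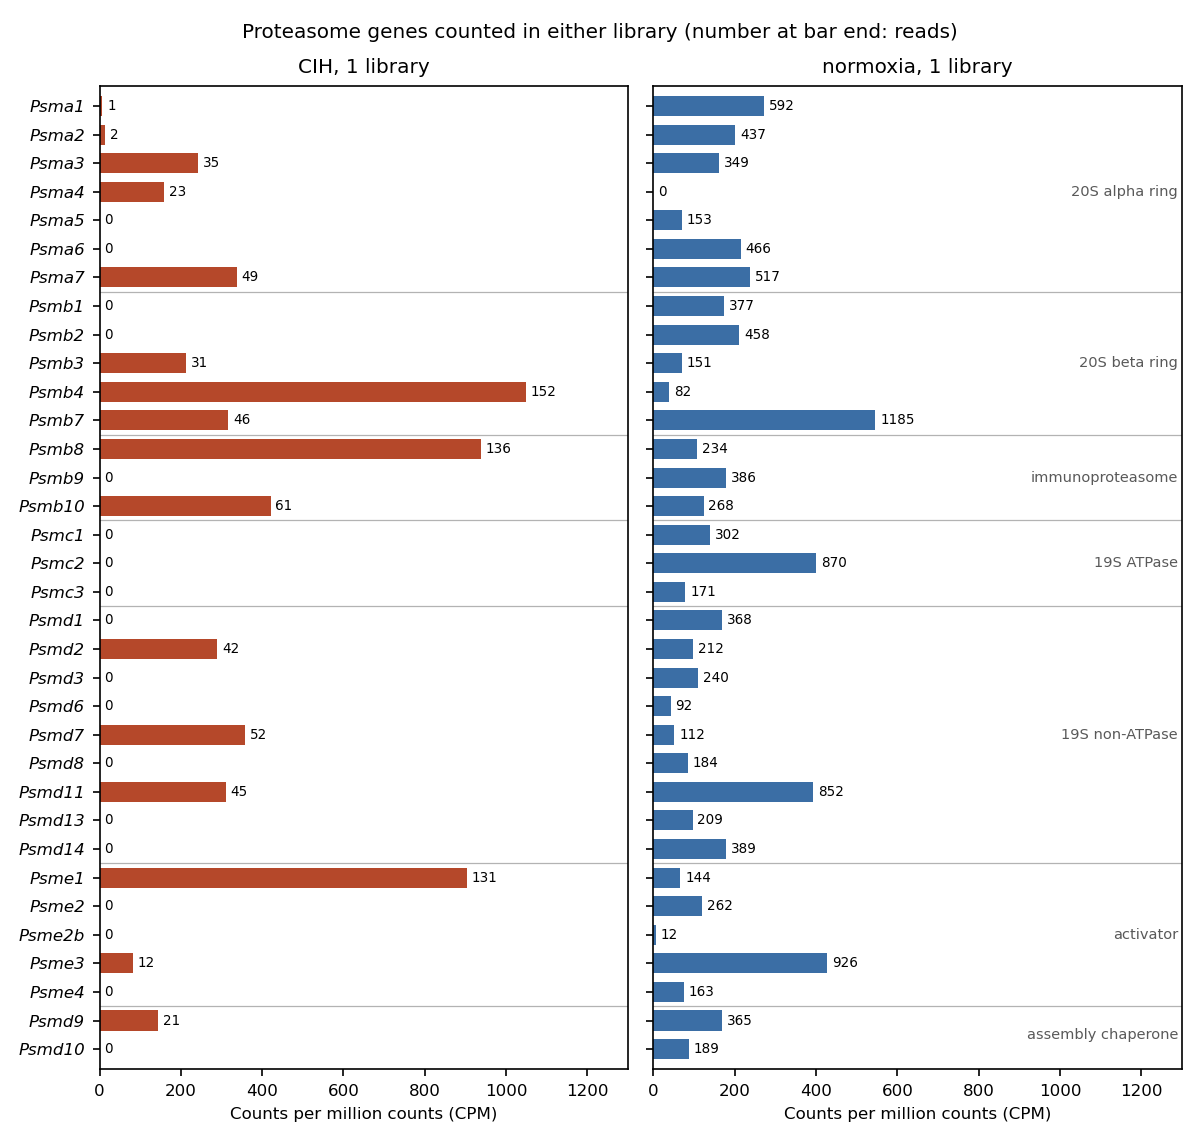
CPM of the 34 proteasome genes counted in either library, with CIH on the left and normoxia on the right, 1 library each, and the read count at the end of each bar. Grey lines separate the classes. In CIH Psmb4, Psmb8 and Psme1 stand at 903 to 1048 CPM and 18 genes are at 0, whereas in normoxia Psmb7 is highest at 545.7 CPM and only Psma4 is at 0.

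The alpha ring, which forms the gate of the barrel, held 13.1% of the proteasome reads in CIH and 21.5% in normoxia. Against the other members its ratio was 0.552 (0.452 to 0.669 by reads), and by molecules the interval of 0.0927 to 2.15 includes 1. Of its 8 genes 5 were counted in CIH and 6 in normoxia, and Psma8, a testis form, in neither. Of the 6 counted in normoxia 4 were also counted in CIH, against 25% of all genes. Psma7 had 49 reads in CIH and 517 in normoxia (338 and 238 CPM), and Psma3 had 35 and 349. Both met neither side of the rule, with ratios of 0.813 (0.594 to 1.09) and 0.860 (0.589 to 1.22). Psma1 had 1 read in CIH and 592 in normoxia, a ratio of 0.014 (0.000366 to 0.081). Psma2 had 2 reads in CIH and 437 in normoxia, a ratio of 0.039 (0.00474 to 0.143). These are the lowest ratios of any member counted in both, and 1 or 2 reads are far fewer than the 39 estimated per molecule. Psma6, with 0 reads in CIH and 466 in normoxia, was at least 18.1-fold lower, and Psma5, with 0 and 153, was at least 5.95-fold lower. Psma4 had 23 reads in CIH and 0 in normoxia, at least 65.75-fold higher by reads but too few to be measured by the rule. The alpha ring was complete in neither library although each of Psma1 to Psma7 was seen in at least 1.

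The beta ring held the member with the highest ratio among the 32 measured. Psmb4, a structural subunit without a cutting site (ENSMUSG00000005779, chromosome 3), had 152 reads in CIH and 82 in normoxia, which is 1048 and 37.8 CPM. Its ratio was 15.9 with TMM (12.1 to 21.1 on reads) and 27.7 with total counts. On molecules the interval with total counts ran from 1.30 up, and with TMM from 0.743 up. The 82 reads in normoxia are fewer than the 229 estimated per molecule there. Psmb3, also structural, had 31 reads in CIH and 151 in normoxia, a ratio of 1.76 (1.16 to 2.61) that met neither side. It passed as higher with total counts, at 3.07. Psmb7, which carries the trypsin-like site, had 46 reads in CIH and 1185 in normoxia, the most of any member there. It was 3.00-fold lower with TMM (ratio 0.333, 0.242 to 0.447) and met neither side with total counts (0.581). The structural genes Psmb1 and Psmb2 had 0 reads in CIH and 377 and 458 in normoxia, at least 14.7-fold and 17.8-fold lower. Psmb5 and Psmb6, which carry the chymotrypsin-like and caspase-like sites, had 0 reads in both libraries. As a whole the beta ring held 229 reads in CIH and 2253 in normoxia, 27.3% and 19.2% of the proteasome counts, and 152 of the 229 were Psmb4.

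Immunoproteasome genes took a larger share of the proteasome counts in CIH. They held 197 of 839 reads in CIH, 23.5% (20.6 to 26.5), and 888 of 11717 in normoxia, 7.58% (7.11 to 8.07). A share within the members does not depend on the scaling between libraries. Set against all other members, the ratio of CIH over normoxia was 3.74, and its interval by reads was 3.19 to 4.37. By molecules the interval was 0.802 to 19.3, which includes 1. It rests on an estimated 5.05 molecules in CIH and 3.88 in normoxia. Psmb8 (ENSMUSG00000024338, chromosome 17), the counterpart of Psmb5, had 136 reads in CIH and 234 in normoxia (938 and 108 CPM). Its ratio was 4.99 (4.01 to 6.18 on reads, 0.456 to 237 on molecules). Psmb10 (ENSMUSG00000031897, chromosome 8), the counterpart of Psmb7, had 61 and 268 reads, a ratio of 1.95 (1.45 to 2.59), just under the 2-fold limit with TMM and 3.41 with total counts. Psmb9 (ENSMUSG00000096727, chromosome 17), the counterpart of Psmb6, went the other way, with 0 reads in CIH and 386 in normoxia, at least 15.0-fold lower. Of the 3 genes, then, 1 was called higher, 1 lower and 1 neither.

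Each immunoproteasome subunit replaces 1 constitutive subunit at the same place in the core, so the pairs were compared within each library. Psmb10 made up 61 of 107 reads of its pair with Psmb7 in CIH, 57.0% (47.1 to 66.5), and 268 of 1453 in normoxia, 18.4% (16.5 to 20.5). By deposited TPM, which is per gene length, it was 72.7% of the pair in CIH and 31.2% in normoxia. On molecules the intervals of the read shares were 4.91 to 98.2% in CIH and 0.746 to 64.4% in normoxia and overlap widely. For the other pairs the constitutive gene was at 0 in both libraries. Psmb8 made up all 136 reads of its pair with Psmb5 in CIH and all 234 in normoxia. Psmb9 made up all 386 reads of its pair with Psmb6 in normoxia, and neither gene was counted in CIH.

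**Figure D2:**
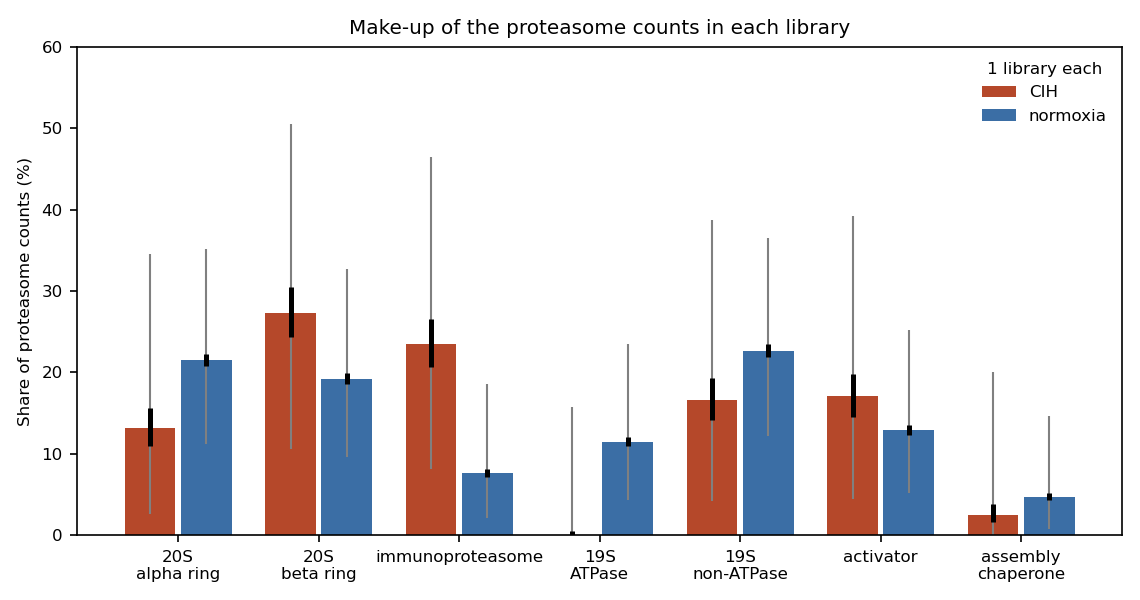
Share of all proteasome reads taken by each class, in percent, in the CIH library (left bar of each pair) and the normoxia library (right bar). Thick black lines are 95% Clopper-Pearson intervals on reads and thin grey lines the same on estimated molecules. The immunoproteasome stands at 23.5% in CIH and 7.58% in normoxia, the 19S ATPases at 0% and 11.5%, and the grey intervals of both classes overlap between libraries.

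The activator genes also parted in direction. PA28 is a ring that opens the core without ATP, built of the products of Psme1 and Psme2. Psme1 (ENSMUSG00000022216, chromosome 14) had 131 reads in CIH and 144 in normoxia (903 and 66.3 CPM), a ratio of 7.80 (6.11 to 9.96 on reads, 0.506 to 2556 on molecules). Its partner Psme2 had 0 reads in CIH and 262 in normoxia, at least 10.2-fold lower. Psme2b, a close copy of Psme2 with which it may share reads, had 0 and 12, so both values are uncertain. Psme3, the nuclear PA28 gamma, had 12 reads in CIH and 926 in normoxia, called lower with a ratio of 0.111 (0.0572 to 0.195), and 0.194 with total counts. Psme4, the activator known from sperm and DNA repair, had 0 and 163 reads. The inhibitor gene Psmf1 was at 0 in both libraries.

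Taken as 1 group, chosen after these values were seen, the 5 interferon-inducible genes Psmb8, Psmb9, Psmb10, Psme1 and Psme2 held 328 reads in CIH, 39.1% of the proteasome counts (35.8 to 42.5), and 1294 in normoxia, 11.04% (10.5 to 11.6). Against the other members the ratio was 5.17 (4.57 to 5.84 by reads, 1.58 to 18.5 by molecules). Set against the whole library it was 2.17 with TMM, where the interval by molecules, 0.663 to 7.78, includes 1. With total counts it was 3.79 (1.16 to 13.6 by molecules). Leaving out each of the 5 in turn gave 3.49 without Psme1 to 7.37 without Psmb9. In CIH 3 of the 5 carried all of these reads, at an estimated 8.41 molecules in all. Neutrophil markers also took a larger share of the CIH library, as given above, and their part in this difference was not tested.

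All of these genes but Psmb10 lie near another gene of the group. On GRCm38, Psmb9 (chromosome 17, 34181987 to 34187764, minus strand), the peptide transporter gene Tap1 (34187553 to 34197225, plus strand) and Psmb8 (34197721 to 34201454, plus strand) follow each other within the MHC region. Tap1 had 35 reads in CIH and 0 in normoxia, the reverse of Psmb9, with which it shares 212 bases at their starts. The strand setting of the counting is not given, so reads from those bases cannot be assigned. Psme1 (chromosome 14, 55578123 to 55581529, plus strand) and Psme2 (55587441 to 55591113, minus strand) lie 5911 bases apart with their 3′ ends facing each other. Stretches before the RefSeq starts of these 5 genes are shown because their products work together while their counts in CIH parted. Each line gives the 250 bases before the RefSeq start (GRCm38.p6), 5′ to 3′ on the gene's strand, with motif matches in capitals. The windows are chr17:34197945-34198194 (plus strand), chr17:34187331-34187580 (minus), chr8:105938393-105938642 (minus), chr14:55578244-55578493 (plus) and, for the first of its RefSeq starts, chr14:55591102-55591351 (minus). RefSeq starts differ from the GENCODE gene bounds given above, which reach further upstream. The windows of Psmb8, Psmb9 and Psme1 lie wholly inside those bounds, and those of Psmb10 and Psme2 overlap their ends.
Psmb8: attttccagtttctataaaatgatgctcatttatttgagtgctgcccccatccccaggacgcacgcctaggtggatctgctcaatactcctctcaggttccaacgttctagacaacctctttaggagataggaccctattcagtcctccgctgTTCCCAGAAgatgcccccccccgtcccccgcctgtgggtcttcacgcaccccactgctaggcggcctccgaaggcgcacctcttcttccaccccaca
Psmb9: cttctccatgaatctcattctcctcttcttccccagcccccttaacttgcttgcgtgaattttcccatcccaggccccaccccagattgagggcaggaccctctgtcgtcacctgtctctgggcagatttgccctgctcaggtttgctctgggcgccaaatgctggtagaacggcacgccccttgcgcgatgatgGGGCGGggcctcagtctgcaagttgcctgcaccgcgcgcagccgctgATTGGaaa
Psmb10: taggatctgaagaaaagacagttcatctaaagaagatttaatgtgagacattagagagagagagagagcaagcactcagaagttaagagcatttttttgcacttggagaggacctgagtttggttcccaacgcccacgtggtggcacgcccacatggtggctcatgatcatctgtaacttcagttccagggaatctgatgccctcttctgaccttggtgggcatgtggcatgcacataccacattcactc
Psme1: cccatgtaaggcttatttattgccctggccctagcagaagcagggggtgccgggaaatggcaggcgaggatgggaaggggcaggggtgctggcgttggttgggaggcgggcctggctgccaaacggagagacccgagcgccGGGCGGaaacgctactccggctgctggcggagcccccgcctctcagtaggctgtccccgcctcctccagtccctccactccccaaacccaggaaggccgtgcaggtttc
Psme2: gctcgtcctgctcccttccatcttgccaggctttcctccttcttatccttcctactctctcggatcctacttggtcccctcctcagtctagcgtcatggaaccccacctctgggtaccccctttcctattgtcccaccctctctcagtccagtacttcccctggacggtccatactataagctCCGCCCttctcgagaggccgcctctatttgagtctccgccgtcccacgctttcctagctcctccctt

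On both strands the motifs searched were the interferon response element core (GAAA, any 2 bases, GAAA), the gamma activation site TTCNNNGAA, the antioxidant response element core TGACNNNGC, the GC box GGGCGG and the CCAAT box CCAAT. In Psmb8 the capitals mark a gamma activation site match that begins at position −97, counted from −1 just before the start. In Psmb9 they mark a GC box match at −55 and a CCAAT box match, read as its reverse complement, at −8. Psmb9's window reaches over the annotated start of Tap1. Single GC box matches stand at −109 in Psme1 and at −67 in Psme2, where it reads as its reverse complement, and Psmb10 had no match to any motif. Over all members with a RefSeq promoter (42 of 50), GC boxes were in 22 (52.4%, against 35.4% of 27025 genes) and CCAAT boxes in 15 (35.7%, against 37.5%). The antioxidant core was in 5 (11.9%, against 11.5%), the gamma activation site in 2 (4.76%, against 8.13%) and the interferon core in 3 (7.14%, against 3.46%), namely Psmb3, Psmd4 and Psmd9. These are letter matches and not sites of binding.

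Of the 12 members of the 19S particle counted in normoxia, 3 were also counted in CIH, against 25% of all genes, so their detection was at the background. Its ATPase ring, which unfolds the substrate, had 0 reads in CIH over all 6 genes and 1343 in normoxia over 3 of them. Psmc2 had 870 reads in normoxia and was at least 33.8-fold lower in CIH with TMM, and 19.4-fold with total counts. With TMM, Psmc1 had 302 reads and was at least 11.7-fold lower, and Psmc3 had 171 and was at least 6.65-fold lower. Psmc4, Psmc5 and Psmc6 were at 0 in both. The 1343 reads in normoxia stand for an estimated 5.86 molecules, and on molecules the interval of the class's ratio to all other members reached up to 1.84, which includes 1.

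Of the 11 non-ATPase genes, 3 were counted in CIH and 9 in normoxia, with 139 and 2658 reads. Psmd7, a partner of the deubiquitinase in the lid, had 52 reads in CIH and 112 in normoxia (358.5 and 51.6 CPM), a ratio of 3.98 (2.81 to 5.58), the only member of the 19S classes called higher with TMM. Psmd2, a scaffold of the base, had 42 and 212 reads, a ratio of 1.70 (1.19 to 2.38) that met neither side. Psmd11, a lid scaffold, had 45 and 852 reads and was 2.21-fold lower (ratio 0.453, 0.328 to 0.611), but met neither side with total counts, at 0.791. The lid's deubiquitinase gene Psmd14, which removes ubiquitin before the substrate enters, had 0 reads in CIH and 389 in normoxia, at least 15.1-fold lower. Psmd1, a base scaffold, had 0 and 368, at least 14.3-fold lower. Psmd3, Psmd13, Psmd8 and Psmd6 also had 0 reads in CIH, against 240, 209, 184 and 92 in normoxia. Psmd4, a ubiquitin receptor, and Psmd12 were at 0 in both. Over ATPase and non-ATPase genes, 19S took 16.6% of the proteasome reads in CIH (14.1 to 19.3) and 34.1% in normoxia (33.3 to 35.0), whereas the alpha and beta rings together took 40.4% (37.1 to 43.8) and 40.7% (39.8 to 41.6). On molecules the 19S intervals, 4.24 to 38.7% in CIH and 21.5 to 48.7% in normoxia, overlap. Set against the whole library, the 19S ratio was 0.298 with TMM (0.0663 to 0.952 by molecules). With total counts it was 0.520 (0.116 to 1.66 by molecules), so whether that interval includes 1 depends on the scaling.

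Of 7 assembly chaperone genes 1 was counted in CIH, against 8.39% of protein-coding rows, and 2 in normoxia, against 19.4%. These were Psmd9 and Psmd10, which help to build the 19S base. Psmd9 had 21 reads in CIH and 365 in normoxia, just past the rule at 2.03-fold lower (ratio 0.493, 0.302 to 0.766), with a ratio of 0.861 on total counts that met neither side. Psmd10, also known as the oncoprotein gankyrin, had 0 and 189 reads, at least 7.35-fold lower. The core chaperone genes Psmg1 to Psmg4 had 0 in both.

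**Figure D3:**
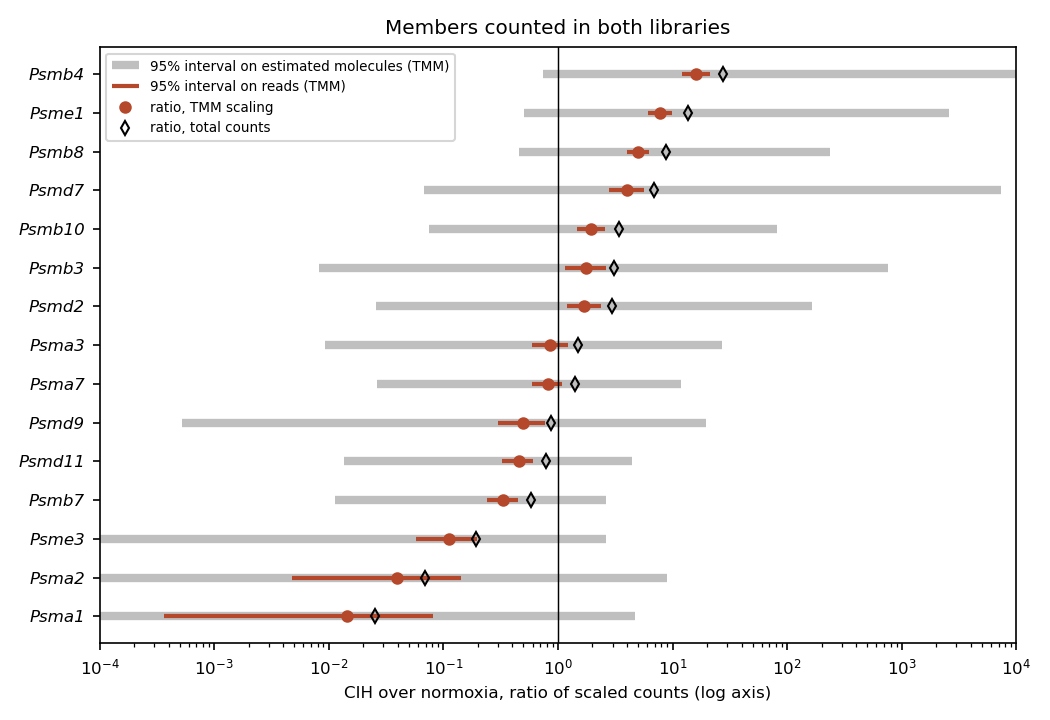
Ratio of scaled counts, CIH over normoxia, on a log axis, for the 15 proteasome genes counted in both libraries, with TMM scaling (filled circles) and total counts (open diamonds). Red lines are 95% intervals on reads and grey bars the same on estimated molecules, cut at the axis ends. Psmb4, Psme1, Psmb8 and Psmd7 have red intervals above 1 with ratios of 3.98 to 15.9. The red intervals of Psmb3, Psmb10 and Psmd2 also lie above 1, at ratios of 1.70 to 1.95. All 15 grey bars cross 1.

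The order of levels differed between libraries. By deposited TPM, which allows genes of unlike length to be compared, the highest members in CIH were Psmb4 (754 TPM), Psme1 (574 TPM), Psmb8 (481 TPM), Psmb10 (346 TPM) and Psmd7 (223 TPM). In normoxia the same genes stood at 35.4, 54.9, 72.1, 132 and 41.7 TPM, which are ranks 30, 22, 19, 11 and 28 of the 33 counted there. The highest in normoxia were Psma2 (390 TPM), Psmb2 (320.5 TPM), Psma6 (318 TPM), Psmb1 (307 TPM) and Psmb7 (292 TPM). In CIH these had 20.5, 0, 0, 0 and 130 TPM. Subunits that sit in the core in equal numbers thus differed from 35.4 TPM for Psmb4 to 390 TPM for Psma2 among those counted in normoxia, and from 3.28 TPM for Psma1 to 754 TPM for Psmb4 among those counted in CIH. Neighbours in either order are not separated by these data, since the most abundant member came to an estimated 3.90 molecules in CIH and 5.17 in normoxia, and 9 and 20 members reached 1 molecule.

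**Figure D4:**
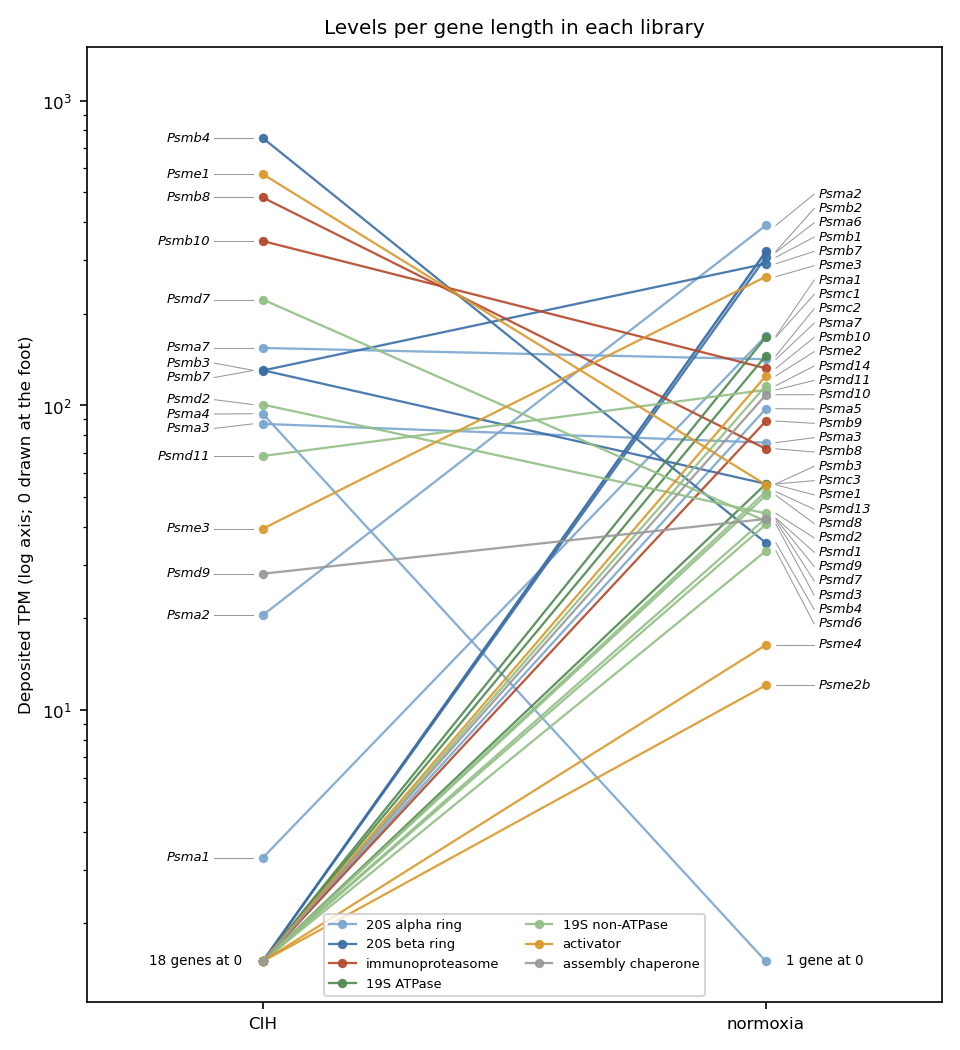
Deposited TPM of the 34 counted proteasome genes in CIH (left) and normoxia (right) on a log axis, with 1 line per gene coloured by class and zeros drawn at the foot. The lines of Psmb4 and Psme1, at 754 and 574 TPM in CIH, run down to 35.4 and 54.9 TPM in normoxia, and 18 genes counted in normoxia run to 0 in CIH.

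Genes that work with the proteasome but lie outside the name rule are given by the members with most counts of 3 lists. Of 11 other proteasome genes found, 8 were measured, with 1 higher, 7 lower and 0 meeting neither side. For this list and the 2 that follow, over all measured genes 11.9% were higher and 75.7% lower, and the lists' counts are near those shares. The higher one was Sem1, a small 19S subunit, with 159 reads in CIH and 613 in normoxia, a ratio of 2.22 (1.86 to 2.65). Pomp, the maturation factor of the 20S core, had 20 and 1042 reads, a ratio of 0.165 (0.100 to 0.256). The ubiquitin receptor gene Adrm1 had 0 reads in CIH and 937 in normoxia, and Fbxo7 had 0 and 285.

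Of 23 genes of ubiquitin and its shuttling, 17 were measured, with 1 higher (against 11.9% of all genes), 13 lower (against 75.7%) and 3 meeting neither side. The ubiquitin genes Ubb (238 reads in CIH and 3517 in normoxia) and Rps27a (99 and 1330) met neither side, at ratios of 0.580 and 0.638. Ube2d3, a ubiquitin-conjugating enzyme, had 29 and 1764 reads, a ratio of 0.141 (0.0942 to 0.203). Nfe2l1, the factor known to drive proteasome genes when degradation falters, and the related stress factor gene Nfe2l2 were singled out after their values were seen. Nfe2l1 had 0 reads in CIH and 794 in normoxia. Nfe2l2 was the higher gene of the list, with 75 and 48 reads, a ratio of 13.4 (9.21 to 19.7 by reads), and its interval by molecules started at 0.214.

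Of 13 genes of class I peptide loading, which take up the peptides the immunoproteasome makes, 10 were measured, with 1 higher (against 11.9% of all genes), 8 lower (against 75.7%) and 1 meeting neither side. The light chain gene B2m had 269 reads in CIH and 5531 in normoxia, a ratio of 0.417 (0.368 to 0.472), and the heavy chain gene H2-D1 had 146 and 3184, a ratio of 0.393 (0.331 to 0.464). With total counts these ratios were 0.728 and 0.686, short of the 2-fold limit. H2-K1 had 114 and 1795 reads and met neither side, at 0.545, and the chaperone gene Canx had 55 and 1183, a ratio of 0.399 (0.299 to 0.523). Calr and Irf1 were singled out after their values were seen. The chaperone gene Calr was the higher one, with 67 reads in CIH and 250 in normoxia, a ratio of 2.30 (1.73 to 3.02). Irf1, an interferon-induced transcription factor, had 0 reads in CIH and 542 in normoxia.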

How the data were processed

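Tools named in the submitters' processing notes are STAR 2.5.2b, Subread 1.5.2 with featureCounts, and bcl2fastq 2.20, with no roles given. Genome build, annotation, strand setting and duplicate removal are not stated there. The authors deposited raw read counts for 49315 genes and, as a second table, the authors deposited TPM values (abundance per gene length at a fixed total). TPM had zeros at the same genes as the counts and TPM per count differed between libraries by 1 factor (11.49) in all 925 genes checked, so it served only to compare genes within a library.

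Scaling used TMM (edgeR 4.0.16, R 4.3.3; factors 1.32 for CIH and 0.757 for normoxia). Ratios carry exact conditional binomial 95% intervals (scipy 1.17.1), shares Clopper-Pearson intervals, both covering counting error only. Positions are from GENCODE M21 on GRCm38, in which all 50 members were found, and promoters from RefSeq GRCm38.p6. The authors' build may differ. Alternatives were total counts, DESeq2 1.42.0 size factors, 17 housekeeping genes, other count minimums, another prior count and estimated molecules. The interval function was tested on simulated counts without copies of molecules. That test cannot show whether intervals on reads hold where molecules were copied many times.

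Members, lists, motifs and rules were chosen with earlier results of these data known. Every member with a count is named, and of other lists up to 4 genes with most counts. Some genes of these lists are counted in the totals but not reported here by name. Of 13 names listed as other proteasome genes, Shfm1 is an older symbol of Sem1, Ecpas was matched as AI314180, and Paaf1 is not analysed here.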

Additional observations from a re-analysis of the deposited data

How the results depend on the processing

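No paired analysis was possible because each group has 1 library, and for the same reason no library could be left out. The count of 23 lower members became 20 with total counts and with housekeeping scaling, 22 with DESeq2 size factors, 23 with no count minimum and 17 at a minimum of 200 counts. The 4 higher members became 7 with total counts and 7 with housekeeping scaling. On estimated molecules with TMM, 0 members were lower and 0 higher. Under the assumed reads per molecule, depth fixed the count of lower members here. Even C1qc, at 0 in CIH with 1253 reads in normoxia, had an interval up to 1.41, and no member had more than 1185 reads there. The summed share ratio of 1.07 was 0.614 with TMM, 0.638 with DESeq2 size factors, 1.30 with housekeeping scaling, 1.90 over members counted in both libraries only, and 0.918 without Psmb4 and Psmb7, an alternative added after the data were seen. Without the member with most counts in each class, class ratios against other members moved to 0.716 for the alpha ring (without Psma1, main value 0.552), 2.66 for the beta ring (without Psmb7, 1.58), 6.62 for the immunoproteasome (without Psmb9, 3.74), 3.31 for activators (without Psme3, 1.39) and 0 for assembly chaperones (without Psmd9, 0.517). For the beta ring, immunoproteasome and activators the gene left out was called lower with TMM, so each ratio rose. Psmd9 held all CIH reads of the assembly chaperones. In no other class with CIH reads was the gene with most CIH reads left out. For the beta ring, immunoproteasome and activators those genes were Psmb4 (152 of the class's 229 CIH reads), Psmb8 (136 of 197) and Psme1 (131 of 143). Each of these class ratios thus rests largely on that gene. With housekeeping scaling the log2 ratio of Psmd9 turned to 0.06, against −1.01 with TMM. Depth limits all of this, since the CIH library is 15.0-fold shallower and its proteasome reads stand for an estimated 21.5 molecules.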
